A study of Rattus norvegicus with 8 samples.

Results

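The cytosolic ribosomal proteins are the proteins of the small (40S) and large (60S) subunits of the ribosome, the particle that translates every messenger RNA of the cytoplasm. They were followed here in the neurohypophysis, the neural lobe of the pituitary, of male Sprague Dawley rats. The members were all genes whose symbol follows the pattern of a ribosomal protein name (Rpl or Rps with a number, with or without the suffix of a copy, plus Rplp0, Rplp1, Rplp2 and Rpsa) and which reached a value of 10 in 4 or more of the 8 libraries. Of 33294 genes listed, 95 had such a symbol and 87 of these passed the minimum. The libraries came from rats aged 35 days, which the labels call controls (n = 4), and rats aged 125 days (n = 4), with no treatment and no genetic change named for either age. According to the labels the rats were perfused with saline under isoflurane before the lobe was frozen, and libraries were made from polyadenylated RNA. No label says whether a library holds 1 lobe or several, or that replicates are separate animals, so each p-value measures the spread between these libraries. Replicates are numbered as in the labels.

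A ribosome holds a single copy of most of its proteins, and the genes for them are transcribed at high and broadly matched rates in all cells. Their messenger RNAs are short, abundant and known as 5' terminal oligopyrimidine messages: they start with a C followed by a run of C and T bases, through which the growth kinase mTORC1 and the binding protein LARP1 control their translation and stability. In the neural lobe the cells that make such RNA are chiefly pituicytes, the resident glia, together with endothelial, mural and immune cells, while the axons of the vasopressin and oxytocin neurons end there with their cell bodies elsewhere. These libraries also held much RNA of Pomc, the hormone precursor of the adjoining intermediate lobe, at 5.65% to 14.3% of reads. The part of intermediate lobe cells in the member values was not tested. In whole tissue a lower value cannot tell apart fewer cells of a type and less RNA per cell.

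The start sites below are shown because a pyrimidine run near the start is more frequent in this family than in all promoters, although some members lack it. Each line gives 15 bases before and 15 bases from the annotated RefSeq start in the rat assembly GRCr8, on the gene's own strand, with capitals for the longest unbroken run of C and T that begins or passes within 5 bases of the start. The first 4 genes belong to those that were higher at 125 days once a single library was left out, and the last 4 to those that were lower against the rest of the family.
Rps21: gaacgagccaCTTCCTTTCTgtgttctccg
Rps23: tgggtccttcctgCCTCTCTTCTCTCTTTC
Rpl13a: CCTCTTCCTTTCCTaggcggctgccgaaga
Rpl6: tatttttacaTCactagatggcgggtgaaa
Rpl23: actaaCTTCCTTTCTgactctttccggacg
Rpl38: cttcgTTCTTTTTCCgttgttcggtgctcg
Rpl39: tcttctaatcgcgTTCTTCCggcctgtcct
Rpl7l1: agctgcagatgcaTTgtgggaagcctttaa
These windows lie at chr3:187724023-187724052 (plus strand), chr2:23814502-23814531 (plus strand), chr1:104748899-104748928 (minus strand), chr12:41011676-41011705 (minus strand), chr10:83272170-83272199 (minus strand), chr10:100200420-100200449 (plus strand), chrX:121195882-121195911 (minus strand) and chr9:21695703-21695732 (plus strand), in that order. The deposited values were made on the assembly rn7, so a start used there can differ by some bases.

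Of the 87 members, 56 had a single unambiguous entry among the RefSeq promoters. A pyrimidine run of at least 6 bases came within 5 bases of the start in 36 of these 56 (64.3%). The share of all 33469 promoters in the table was 18.7%. A run of at least 10 bases came that near in 26 members (46.4%), against 4.50% of all promoters. The median run was 9 bases in members and 3 bases in all. Runs that ended before the start were counted too, so these are not counts of RNAs that begin with a run. The letters CTTTC on the sense strand occurred within the 30 bases in 42.9% of members and 3.59% of all promoters. The letters CCGGAAG, searched on both strands over the 300 bases from 250 before to 50 after the start, occurred in 30.4% of members and 8.75% of all. CACGTG (7.14% of members, 6.42% of all) and TATAAA on either strand (12.5% and 14.2%) were at shares near those of all promoters. Among the printed genes, Rpl6 and Rpl7l1 lack a long run near the annotated start, and the other 6 have one. In Rpl13a, Rpl23 and Rpl38 the run ends before that start, so the RNA as annotated does not begin with it. Rps21 and Rps23 have a T at the annotated start, and Rpl39 has a C. Such matches describe the annotated windows and are not evidence of a binding site.

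The members divide by their place in the ribosome. There were 29 proteins of the small subunit, 41 of the large subunit and 3 of the P stalk, the flexible arm of the large subunit that recruits elongation factors. These 73 subunit proteins stand for 77 in the lists used, and the symbols Rps9, Rps19, Rpl35a and Rpl37a were not analysed here. The other 14 members were copies, of which 6 are recognised paralogs with their own symbol (Rpl7l1, Rpl10l, Rpl22l1, Rpl39l, Rps27l and Rps4y2) and 8 are other copies (Rps9l1, Rps10l1, Rps12l2, Rps12l3, Rps18l1, Rps19l2, Rpl5l1 and Rpl31l4). The RefSeq table lists Rps9l1 and Rps19l2 both as genes of their own and as other names of Rps9 and Rps19, and lists Rps10l1 as a pseudogene. Since the handling of reads that fit several places is not given in the sources used here, values of copies and of their parent genes are uncertain.

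The 8 matching genes below the minimum were Rpl30l1, Rpl3l, Rpl31l2, Rps17l, Rps19l1, Rpl22l2, Rpl31l1 and Rpl34l1. The closest of them were Rpl30l1, with a mean of 4.69 over the 8 libraries, and Rpl3l, with a mean of 4.43. Just inside stood Rps12l3 with a mean of 17.3, Rps12l2 with 27.8, Rps4y2 with 158 and Rpl37 with 160. All values are depth-normalized counts, that is reads per gene divided by a size factor of the library. They compare libraries for 1 gene, and not 1 gene with another, since gene length is not removed.

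The libraries held 28429133 to 58696254 reads in genes. The tissue markers were present at both ages: Rax, a transcription factor of pituicytes, had values of 1615 to 2531 at 35 days and 1351 to 2611 at 125 days, and the vasopressin transcript Avp, which axons carry into the lobe, 1979 to 3036 and 1369 to 2919. One library stood apart. 35-day replicate 3 had the highest level of anterior lobe hormone transcripts: growth hormone (Gh1) gave 2.68% of its reads, against 0.0112%, 0.358% and 0.260% in the other 35-day libraries and 0.0039% to 0.0943% at 125 days. The summed level of the 10 anterior lobe markers was 14553, 208587, 1326342 and 133045 in 35-day replicates 1 to 4 and 3093 to 46888 at 125 days. No marker was at 0 in all libraries. Replicates 2 and 4 at 35 days thus also lay above every 125-day library, and they remain in the comparison without replicate 3. The summed level of 10 mural cell markers was lower in replicate 3 (11341) than in the other 35-day libraries (17341 to 20126). The part of these cells in the results below was not tested beyond the fits named there.

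Replicate 3 at 35 days was also the library with the most ribosomal protein RNA. It was the highest of the 8 libraries in 82 of 87 members, whereas it was the highest for 29.0% of all 17919 genes tested. The exceptions were Rps12l3, Rps4y2, Rpl10l, Rpl3 and Rpl7l1. Against the mean of the other 3 libraries of its age, the median member was 1.70-fold higher there, a log2 deviation of 0.76 with a range from -0.41 to 1.32. For all genes tested the median deviation was -0.01 with an SD of 0.65, and 8.48% of them deviated upwards by at least the members' median. The value in replicate 3 was above that mean in log2 terms in 86 members and below it in 1, Rpl10l, and it exceeded every 125-day library in 84. Shares of all genes are not given here for these counts. The excess was seen in each class of member, with median log2 deviations of 0.78 in the small subunit, 0.71 in the large subunit, 0.91 in the P stalk, 0.42 in the paralogs and 0.90 in the other copies.

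Other gene groups in the same library are set beside this excess, whose source was not tested. The median log2 deviation of replicate 3 was 0.86 over 38 other short, abundant transcripts and 0.40 over 27 translation factors, against 0.26 over 60 genes of ribosome assembly and -0.23 over 24 regulators of growth such as the Myc and mTOR genes. It was 2.86 over the anterior lobe markers and -0.43 over those of the intermediate lobe. The intermediate lobe markers were split, since their summed level, which is mostly Pomc, was highest at 35 days in replicate 3 (3780344, against 2039803 to 2335513).

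The remaining libraries also had a shared order. Relative to each gene's mean at 125 days, the median member stood at a log2 value of 0.04 in 35-day replicate 1, -0.21 in replicate 2, 0.58 in replicate 3 and -0.38 in replicate 4. The 125-day libraries stood at 0.10, -0.15, 0.04 and -0.01. Replicate 4 at 35 days was the lowest of the 8 libraries in 70 members, against 10.4% of all genes. It lay below every 125-day library in 77 members, a count for which no share of all genes is given here. Replicate 1 was the highest of the other 35-day libraries in 80 members (34.9% of all genes), and at 125 days replicate 1 was the highest in 58 (29.6%) and replicate 2 the lowest in 80 (35.1%). The family therefore moved up and down together from library to library within each age.

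**Figure D1:**
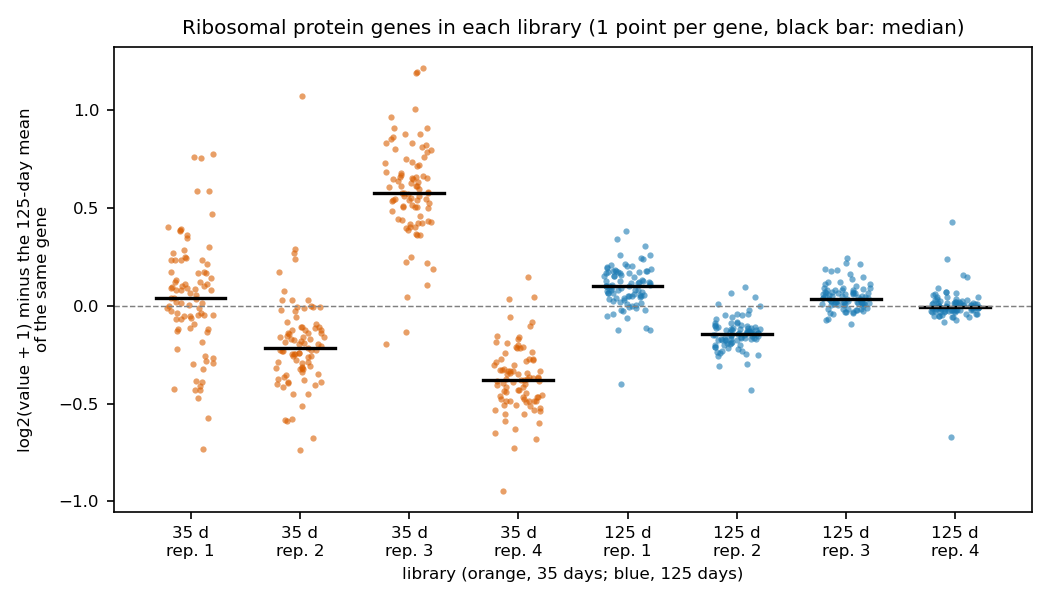
Each point is 1 of the 87 members in 1 library, plotted as log2(value + 1) minus the mean of that gene over the 125-day libraries, with the median as a black bar; 35-day libraries are orange and 125-day libraries blue. The 35-day medians run from -0.38 in replicate 4 to 0.58 in replicate 3, while the 125-day medians lie between -0.15 and 0.10.

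The spread of members within an age was wider at 35 days. The median SD over members on the log2 scale was 0.43 at 35 days, 0.21 at 35 days without replicate 3 and 0.12 at 125 days. For all genes tested the same medians were 0.26, 0.14 and 0.14. At 125 days the members had a median coefficient of variation of 8.26%. The adult libraries thus had a spread in members close to that of other genes, and the young libraries a larger one.

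As a share of all reads, the members took 2.78%, 2.36%, 3.93% and 2.21% in the 35-day libraries and 2.75%, 2.44%, 2.74% and 2.57% in the 125-day libraries. The means were 2.82% ± 0.779 (SD, n = 4) at 35 days and 2.62% ± 0.149 (SD, n = 4) at 125 days, and 2.45% ± 0.295 (SD, n = 3) at 35 days without replicate 3. The ages overlapped, with 2 of the young libraries below all adult ones and 2 above them. Pomc, the hormone precursor of the intermediate lobe, took 10.2% of the reads in 35-day replicate 3, 5.65% to 6.78% in the other 35-day libraries and 10.1% to 14.3% at 125 days. With Pomc, Gh1 and Prl left out of the total the member shares were 3.11% ± 0.998 (SD, n = 4), 3.0% ± 0.208 (SD, n = 4) and, without replicate 3, 2.62% ± 0.309 (SD, n = 3).

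The balance of the subunits varied much less than their amount. The summed value of the small subunit proteins divided by that of the large subunit proteins was 0.653, 0.631, 0.671 and 0.628 at 35 days and 0.635, 0.639, 0.639 and 0.630 at 125 days. The means were 0.646 ± 0.0206 (SD, n = 4) and 0.636 ± 0.00433 (SD, n = 4), and 0.637 ± 0.0137 (SD, n = 3) at 35 days without replicate 3. The P stalk made up 7.51% ± 0.334 (SD, n = 4) of the large subunit sum at 35 days and 7.19% ± 0.151 (SD, n = 4) at 125 days. Neither quantity was tested, since both are scores over the members.

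**Figure D2:**
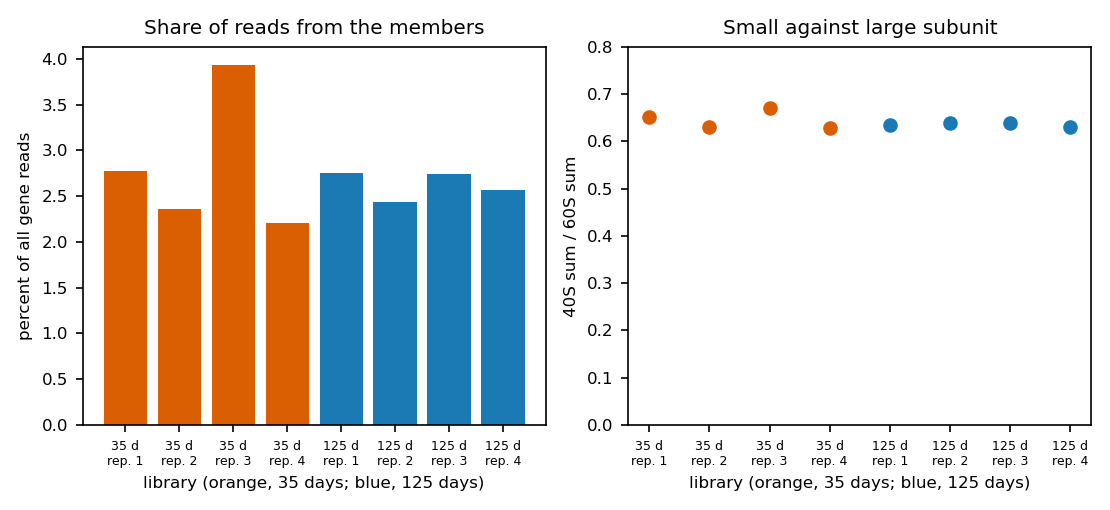
The left panel gives the members' percent of all gene reads in each library and the right panel the ratio of the summed small to the summed large subunit values; 35-day libraries are orange and 125-day libraries blue. The share runs from 2.21% to 3.93% at 35 days and from 2.44% to 2.75% at 125 days, while all 8 ratios lie between 0.628 and 0.671.

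The comparison of 125 with 35 days over all 8 libraries called none of the 87 members, with 0 higher and 0 lower. It used limma on log2(value + 1), an additive model of age fitted across all 17919 genes that passed the minimum, with Benjamini-Hochberg adjustment over all of them and a threshold of 0.05 (two-sided). Of all genes tested 17.7% were called, 8.85% higher and 8.87% lower at 125 days. At an unadjusted p below 0.05 there were 2 members, Rpl23 and Rpl7l1, against 31.6% of all genes. On counts recovered from the values edgeR called 0 members, against 8.47% of all genes higher and 9.22% lower. DESeq2 called 0 higher and 2 lower, Rpl23 and Rpl7l1, against 23.4% of all genes called, 11.2% higher and 12.2% lower. The median log2 change of the members was -0.01, with a range from -0.49 to 0.34, and that of all genes was 0.01. Fitted changes were above 0 in 42 members and below 0 in 45.

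The result over 8 libraries depended on the weight of the libraries. When limma weighted each library by its scatter, 31 members were higher and 3 lower, where 44.0% of all genes were called, 22.2% higher and 21.9% lower. When the mean level of the anterior lobe markers was a term of the fit, 4 members were higher and 0 lower, where 15.0% of all genes were called, 7.53% higher and 7.44% lower. The 4 were Rps2, Rps18l1, Rpl6 and Rps10l1, and the median change of the members was 0.20 with the weights and 0.24 with the anterior lobe term.

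A missed threshold does not show equal levels, so the intervals matter. The 95% interval of the change had a median half-width of 0.44 on the log2 scale over the members, and 85 of 87 intervals lay between -1 and 1. The exceptions were Rps12l2, a copy with few reads, and Rpl10l. The median standard error was 0.20 in members and 0.16 in all genes. For those 85 members a log2 change of 1 in either direction lay outside the interval.

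Without 35-day replicate 3, the same test called 20 members higher and 1 lower at 125 days. The share of members called was 24.1%, below the 30.7% of all genes called in this fit. For higher calls it was 23.0% of members against 15.9% of all genes, and 14.8% of all genes were called lower. The median change of the members was 0.20 on the log2 scale, with 73 of 87 above 0, while that of all genes was 0.00. The median half-width of the intervals fell to 0.24. By class, 8 of 29 small subunit genes, 8 of 41 large subunit genes, 1 of 3 P stalk genes and 3 of 8 other copies were higher, and 1 of 6 paralogs was lower. Medians were 0.17, 0.20, 0.20, 0.29 and, for the paralogs, -0.09. The members described below from this fit were chosen after their values were seen.

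Among the 7 libraries the ages did not overlap in 17 of 87 members that were higher at 125 days, a share close to the 20.3% of all genes. They did not overlap in 1 member that was lower (17.9% of all genes). Higher values without overlap, as described for single members below, are therefore not particular to this family. Over all 8 libraries only Rpl7l1 was free of overlap, where 13.4% of all genes lay wholly higher and 11.5% wholly lower at 125 days. With edgeR on the recovered counts the 7 libraries gave 17 members higher and 1 lower, where 30.5% of all genes were called, 14.6% higher and 15.8% lower. With DESeq2 they gave 21 higher and 1 lower, where 33.5% of all genes were called, 16.6% higher and 16.9% lower. Of the 21 calls, 13 held in each of 12 other settings, among them leaving out a further library, scaling to total reads and adding the anterior lobe term. Higher calls numbered 15 to 37 when a further library was left out, and the shares of all genes in those fits are not given here. With the anterior lobe term 13 members were higher and 1 lower (12.7% and 10.6% of all genes). When libraries were scaled to total reads, 15 members were higher and 2 lower (10.6% and 21.0% of all genes), and the medians were 0.11 in members and -0.08 in all genes.

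**Figure D3:**
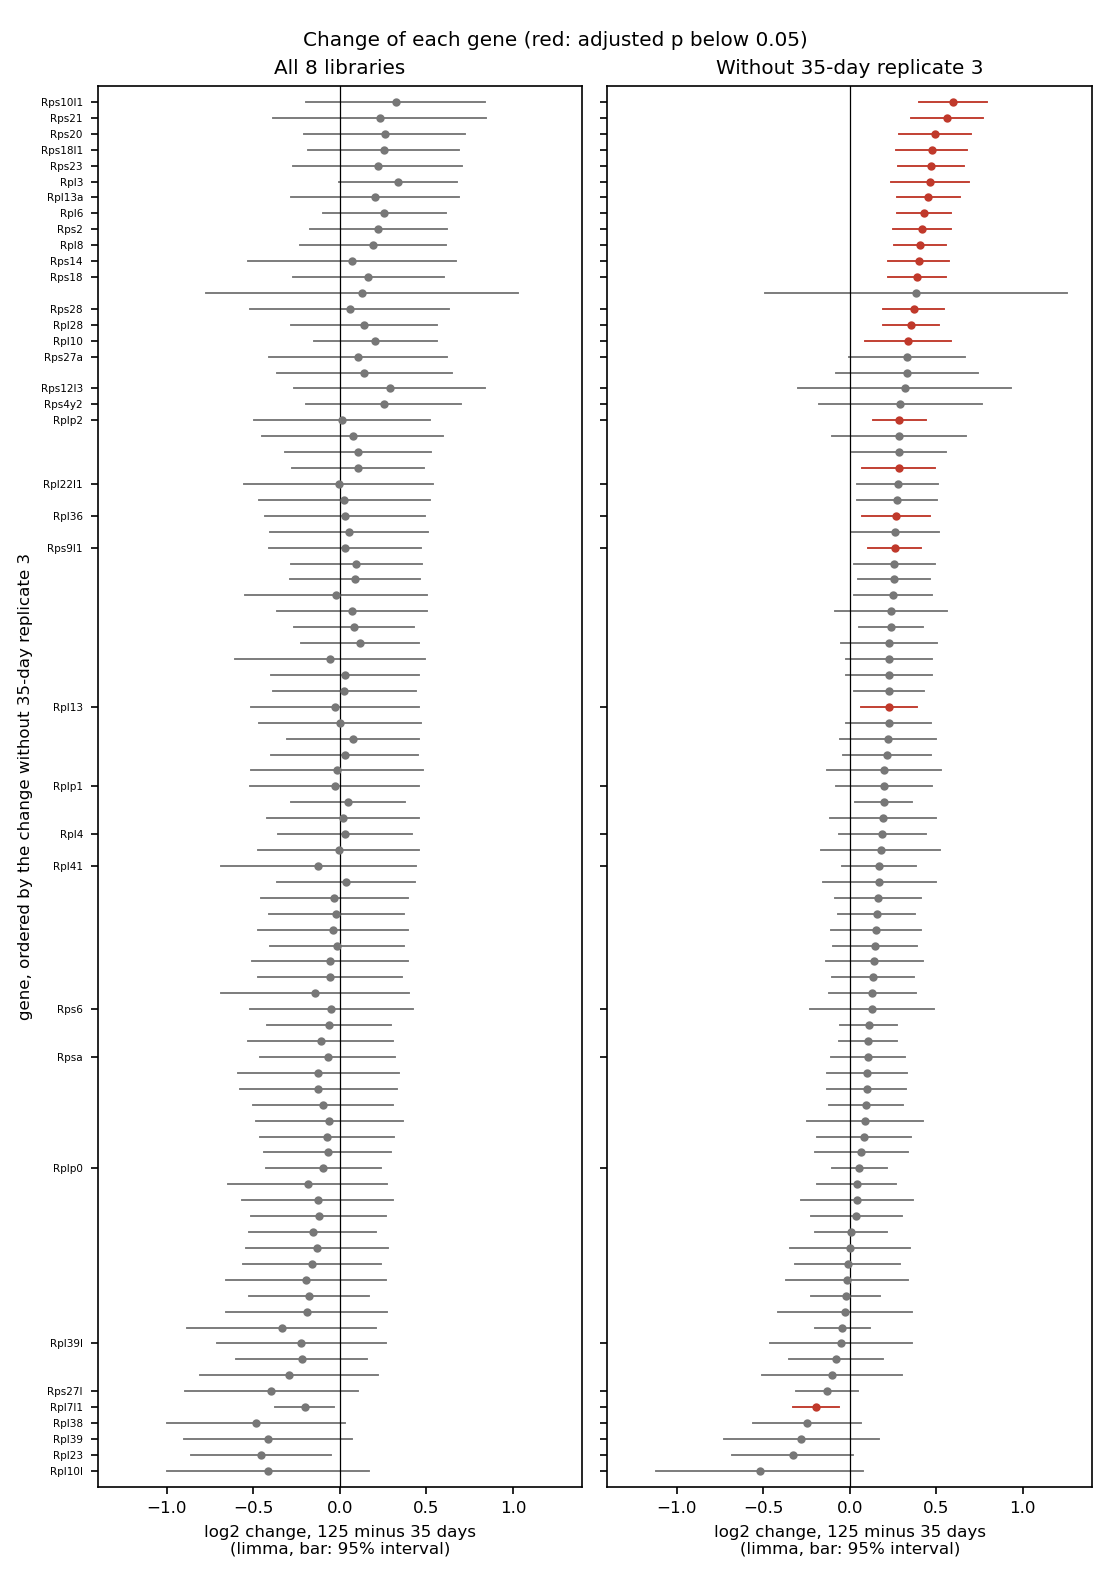
Points are fitted log2 changes of the members (125 minus 35 days, limma) with 95% intervals, over all 8 libraries and without 35-day replicate 3; genes are in the order of the second fit, with labels for those described in the text, and red marks an adjusted p below 0.05. No gene is red over 8 libraries, and 21 are red without that library, 20 of them to the right of 0.

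In the small subunit, Rps21 had the largest change of the subunit proteins without replicate 3. Its values were 4084, 3303, 9334 and 3833 at 35 days and 5421, 5078, 6268 and 5314 at 125 days. Replicate 3 lay above all adult libraries and the other 3 young libraries lay below all of them. Over 8 libraries the log2 change was 0.23 with a standard error of 0.28 and a limma adjusted p of 0.611. Without replicate 3 it was 0.56 with a standard error of 0.09 and a limma adjusted p of 0.00201, a value 47.7% higher at 125 days.

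Rps20, a protein of the head of the small subunit, had values of 8806, 7228, 14748 and 7163 at 35 days and 11262, 9789, 11804 and 10589 at 125 days. Rps23, which reaches into the decoding centre where codons are read, had 12245, 9952, 21597 and 10152 at 35 days and 14896, 13992, 15616 and 15032 at 125 days. In both genes 3 young libraries lay below every adult one and replicate 3 above them. Their log2 changes were 0.26 and 0.22 over 8 libraries (limma adjusted p = 0.438 and 0.539), and 0.49 and 0.47 without replicate 3 (limma adjusted p = 0.00397 and 0.00316).

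Rps14, a protein of the platform of the small subunit, showed how far 1 library carried the young mean. Its values were 8939, 8839, 21988 and 8882 at 35 days and 11917, 10578, 13134 and 11365 at 125 days. The mean at 35 days was 12162 ± 6550 (SD, n = 4) with replicate 3 and 8887 ± 49.8 (SD, n = 3) without it, against 11749 ± 1075 (SD, n = 4) at 125 days. The log2 change was 0.07 over 8 libraries (limma adjusted p = 0.888) and 0.40 without replicate 3 (limma adjusted p = 0.00461). In edgeR and DESeq2 on the 8 libraries the same gene had a small change of the other sign, -0.05 and -0.06.

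Rps2, Rps18 and Rps28 had the same layout, with 3 young libraries below and 1 above all adult ones. The log2 changes without replicate 3 were 0.42 in Rps2, 0.39 in Rps18 and 0.37 in Rps28, with limma adjusted p values of 0.00313, 0.00404 and 0.00666. Over 8 libraries they were 0.22, 0.16 and 0.06, none of them called.

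Other small subunit proteins with known roles did not pass in either fit. Rps6, the substrate of the S6 kinases downstream of mTORC1, had values of 32325, 24756, 40733 and 19443 at 35 days and 31533, 24234, 28120 and 25805 at 125 days. The young libraries spanned the whole adult range and went past it on both sides. Its log2 change was -0.05 over 8 libraries (95% interval -0.52 to 0.42, limma adjusted p = 0.905) and 0.13 without replicate 3 (-0.23 to 0.49, limma adjusted p = 0.575).

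Rpsa, also known as the laminin receptor precursor, had values of 22981, 19936, 32832 and 18013 at 35 days and 23067, 20027, 21489 and 22418 at 125 days, with changes of -0.07 and 0.10 in the 2 fits (limma adjusted p = 0.820 and 0.438). Rps27a, which is made as a fusion with ubiquitin, had values of 13395, 9640, 18855 and 7877 at 35 days and 13569, 11609, 12797 and 12700 at 125 days, with changes of 0.10 and 0.33 (limma adjusted p = 0.80 and 0.124). In both genes young libraries lay below and above the adult range, and 35-day replicate 1 lay within it.

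In the large subunit, Rpl8, a protein close to the peptidyl transferase centre that joins amino acids, had values of 12728, 12471, 22856 and 12480 at 35 days and 16528, 15399, 17219 and 17483 at 125 days. The 3 young libraries other than replicate 3 differed by little, with a mean of 12560 ± 146 (SD, n = 3), and all lay below the adult mean of 16657 ± 930 (SD, n = 4). Its log2 change was 0.19 over 8 libraries (limma adjusted p = 0.536) and 0.41 without replicate 3 (standard error 0.07, limma adjusted p = 0.00214).

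Rpl6 had values of 10048, 10547, 15890 and 9211 at 35 days and 13675, 12605, 13498 and 13615 at 125 days, and changes of 0.26 (limma adjusted p = 0.302) and 0.43 (limma adjusted p = 0.00184). Rpl13a, often used as a reference gene in PCR, had values of 22267, 21900, 43501 and 21358 at 35 days and 30127, 27493, 32871 and 29332 at 125 days, and changes of 0.20 (limma adjusted p = 0.566) and 0.45 (limma adjusted p = 0.00301). In replicate 3 the value of Rpl13a was 1.99 times the mean of the other young libraries, and that of Rpl6 1.6 times.

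Rpl3, which lies beside the peptidyl transferase centre, differed from the others in that replicate 3 did not exceed all adult libraries. Its values were 23784, 20473, 30146 and 19365 at 35 days and 31811, 25844, 30391 and 28998 at 125 days. The change was 0.34 over 8 libraries (limma adjusted p = 0.161), the highest fitted change of the 87 members, and 0.47 without replicate 3 (limma adjusted p = 0.00746). With the anterior lobe term on the 7 libraries the limma adjusted p was 0.0508. Rpl28 had a change of 0.35 without replicate 3 (limma adjusted p = 0.00547). Rpl10, which joins the large subunit late in its assembly, Rpl13 and Rpl36 had changes of 0.34, 0.23 and 0.27, with limma adjusted p values of 0.0452, 0.0405 and 0.0425, and each was lost in 8 of the 12 other settings.

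Rpl4, which lines the exit tunnel of the new protein chain, and Rpl41, the shortest ribosomal protein, were among the members with the highest values and passed in neither fit. Rpl4 had values of 28141, 24650, 38145 and 21734 at 35 days and 31583, 24502, 28496 and 28440 at 125 days, with a change of 0.03 over 8 libraries (limma adjusted p = 0.927) and 0.19 without replicate 3 (limma adjusted p = 0.236). Rpl41 had values of 21471, 18074, 42678 and 17220 at 35 days and 22465, 19248, 22184 and 21113 at 125 days, with changes of -0.12 (limma adjusted p = 0.782) and 0.17 (limma adjusted p = 0.201). In replicate 3 Rpl41 was 2.26 times the mean of the other young libraries and Rpl4 1.54 times, and the other young libraries reached into or beyond the adult range.

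The P stalk is built from Rplp0, the anchor, and the paired proteins Rplp1 and Rplp2. Rplp0 had values of 18378, 18942, 27810 and 17732 at 35 days and 19961, 17715, 19526 and 19073 at 125 days, with a change of -0.10 over 8 libraries (95% interval -0.43 to 0.24, limma adjusted p = 0.706) and 0.05 without replicate 3 (-0.10 to 0.21, limma adjusted p = 0.594). Rplp1 had values of 15871, 12108, 24269 and 11180 at 35 days and 15673, 12882, 16011 and 14838 at 125 days, with changes of -0.03 and 0.20 (limma adjusted p = 0.944 and 0.255). Rplp2 had values of 5914, 5490, 11784 and 5158 at 35 days and 6854, 6276, 6752 and 7013 at 125 days, with changes of 0.01 and 0.29 (limma adjusted p = 0.980 and 0.0120). Of the 3, Rplp2 was the gene called without replicate 3, and it missed the threshold with the anterior lobe term (limma adjusted p = 0.0670). The difference between the stalk proteins was not tested.

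**Figure D4:**
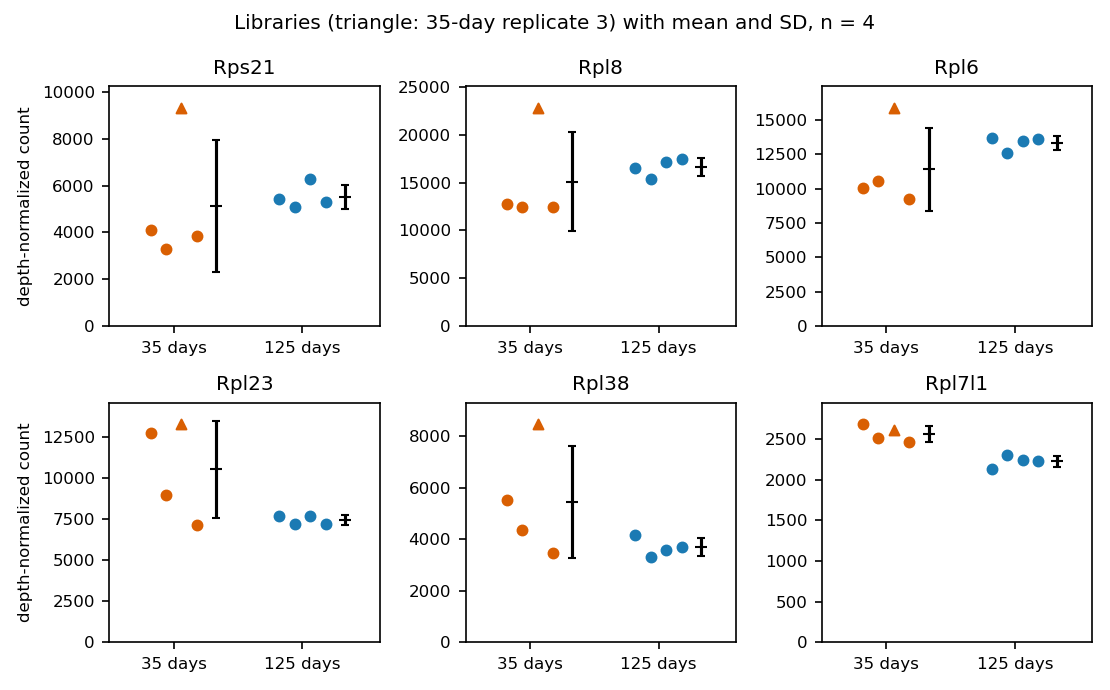
Depth-normalized counts of Rps21, Rpl8, Rpl6, Rpl23, Rpl38 and Rpl7l1 in each library at 35 and 125 days, with the mean and SD of each age (n = 4); the triangle marks 35-day replicate 3. For Rps21 the triangle, at 9334, lies above the adult libraries and the 3 other young libraries lie below them, whereas for Rpl7l1 all young libraries lie above all adult ones.

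The 6 paralogs had a median change of -0.21 over 8 libraries and -0.09 without replicate 3, with members on both sides of 0 in each fit. Their difference from the subunit proteins was not tested. Rpl7l1, a relative of Rpl7 found in precursors of the large subunit, had values of 2678, 2508, 2602 and 2461 at 35 days and 2130, 2298, 2243 and 2228 at 125 days. All young libraries lay above all adult ones, and replicate 3, 1.02 times the mean of the other young libraries, did not stand out. Its log2 change was -0.20 over 8 libraries (standard error 0.08, 95% interval -0.37 to -0.03, limma adjusted p = 0.0947) and -0.20 without replicate 3 (standard error 0.06, limma adjusted p = 0.0327). The gene was called lower by DESeq2 on the 8 libraries (adjusted p = 0.0186). The call without replicate 3 was lost in 5 of the 12 other settings.

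Rpl10l, known as the testis copy of Rpl10, had the lowest fitted change of the 87 members in the 7-library fit and did not pass. It had values of 293, 365, 186 and 143 at 35 days and 159, 185, 168 and 181 at 125 days, and its young libraries ranged from below to well above the adult ones. It was the single member with a lower value in replicate 3 than the mean of the other young libraries, at 0.70 times that mean. Its changes were -0.42 (limma adjusted p = 0.313) and -0.52 (limma adjusted p = 0.169).

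Rps27l, a target gene of p53, had values of 980, 847, 1837 and 826 at 35 days and 847, 783, 797 and 794 at 125 days, with changes of -0.40 (limma adjusted p = 0.261) and -0.13 (limma adjusted p = 0.246). Rpl39l, a copy of Rpl39 best known from testis, had 1989, 1496, 2537 and 1325 at 35 days and 1935, 1132, 1451 and 1699 at 125 days, with changes of -0.22 (limma adjusted p = 0.531) and -0.05 (limma adjusted p = 0.852). In Rps27l replicate 3 was 2.08 times the mean of the other young libraries, and in Rpl39l 1.58 times. Rpl22l1, which can take the place of Rpl22, had 1626, 1279, 3038 and 1277 at 35 days and 1671, 1525, 1899 and 1643 at 125 days, with changes of -0.01 (limma adjusted p = 0.991) and 0.28 (limma adjusted p = 0.0706). Rps4y2, a copy of Rps4, had 113, 173, 154 and 134 at 35 days and 128, 169, 165 and 228 at 125 days, with changes of 0.25 and 0.29 (limma adjusted p = 0.426 and 0.321).

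Among the other copies, Rps10l1 had the largest rise of all members without replicate 3. Its values were 812, 897, 1907 and 970 at 35 days and 1235, 1357, 1320 and 1491 at 125 days, and its change was 0.60 (standard error 0.09, limma adjusted p = 0.00106), against 0.32 over 8 libraries (limma adjusted p = 0.381). Rps18l1 had a change of 0.47 (limma adjusted p = 0.00422) beside 0.39 in its parent Rps18. Rps9l1 had a change of 0.26 (limma adjusted p = 0.0184) that was lost in 5 of the 12 other settings. How reads were divided between a copy and its parent was not tested.

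To see members move against the rest of the family, each library was scaled to the same summed value of the 73 subunit proteins and the test was run again across all genes. Over 8 libraries this fit called 0 members by limma, with 3 at an unadjusted p below 0.05, and 5.33% of all genes, 2.09% higher and 3.24% lower. Without replicate 3 it called 0 members higher and 4 lower, against 21.6% of all genes called in either direction, 4.25% higher and 17.4% lower. In that fit the median change of all genes was -0.19 and that of the members 0.01, so a lower call here is lower relative to the family. Called were Rpl23, Rpl38 and Rpl39 of the large subunit and the paralog Rpl7l1.

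Rpl23, a protein of the face where the subunits meet that also binds the p53 regulator Mdm2, had values of 12731, 8958, 13271 and 7156 at 35 days and 7709, 7197, 7668 and 7202 at 125 days. As a percent of the subunit sum it stood at 1.35%, 1.128%, 0.955% and 1.01% at 35 days and 0.773%, 0.866%, 0.805% and 0.782% at 125 days, and every young library lay above every adult one, replicate 3 included. Relative to the family its change was -0.52 without replicate 3 (standard error 0.12, limma adjusted p = 0.0110) and -0.45 over 8 libraries (limma adjusted p = 0.216). On the usual scale it was -0.46 over 8 libraries (95% interval -0.86 to -0.05, limma adjusted p = 0.116) and -0.33 without replicate 3 (limma adjusted p = 0.139). In the relative fit it stayed called when each further library was left out.

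Rpl38, known for its role in the translation of Hox messages in the embryo, had values of 5536, 4356, 8461 and 3483 at 35 days and 4170, 3321, 3602 and 3712 at 125 days. Its share of the subunit sum was 0.588%, 0.549%, 0.609% and 0.491% at 35 days and 0.418%, 0.400%, 0.378% and 0.403% at 125 days, again with no overlap. Its relative change was -0.44 without replicate 3 (standard error 0.11, limma adjusted p = 0.0149) and -0.48 over 8 libraries (limma adjusted p = 0.141). The call was lost without 35-day replicate 2 or without 125-day replicate 3 or 4, with limma adjusted p values up to 0.0864. Over the 8 libraries on the usual scale its change of -0.49 was the lowest of the 87 members (limma adjusted p = 0.181).

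Rpl39, a small protein of the wall of the exit tunnel, had values of 6644, 4808, 6942 and 3400 at 35 days and 4867, 3325, 3948 and 3741 at 125 days. Its share of the subunit sum was 0.705%, 0.606%, 0.50% and 0.479% at 35 days and 0.488%, 0.400%, 0.414% and 0.406% at 125 days, and here 1 young library lay within the adult range. Its relative change was -0.47 without replicate 3 (standard error 0.14, limma adjusted p = 0.0328) and -0.41 over 8 libraries (limma adjusted p = 0.318). Rpl7l1 had a relative change of -0.39 without replicate 3 (standard error 0.12, limma adjusted p = 0.0445) and -0.20 over 8 libraries (limma adjusted p = 0.797). With a further library left out, the relative call of Rpl39 was lost in 4 of 7 cases (limma adjusted p up to 0.128) and that of Rpl7l1 in 5 of 7 (up to 0.157), and 1 to 6 members were called.

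On the other side, Rps21 and Rps20 took a larger share of the subunit sum at 125 days without passing the test. Rps20 stood at 0.935%, 0.910%, 1.06% and 1.01% at 35 days and 1.129%, 1.18%, 1.24% and 1.15% at 125 days, with all young libraries below all adult ones. Its relative change was 0.30 without replicate 3 (limma adjusted p = 0.0553) and 0.26 over 8 libraries (limma adjusted p = 0.508). Rps21 had relative changes of 0.37 (limma adjusted p = 0.0504) and 0.24 (limma adjusted p = 0.689), and its replicate 3, at 0.672% of the sum, was above all adult libraries.

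**Figure D5:**
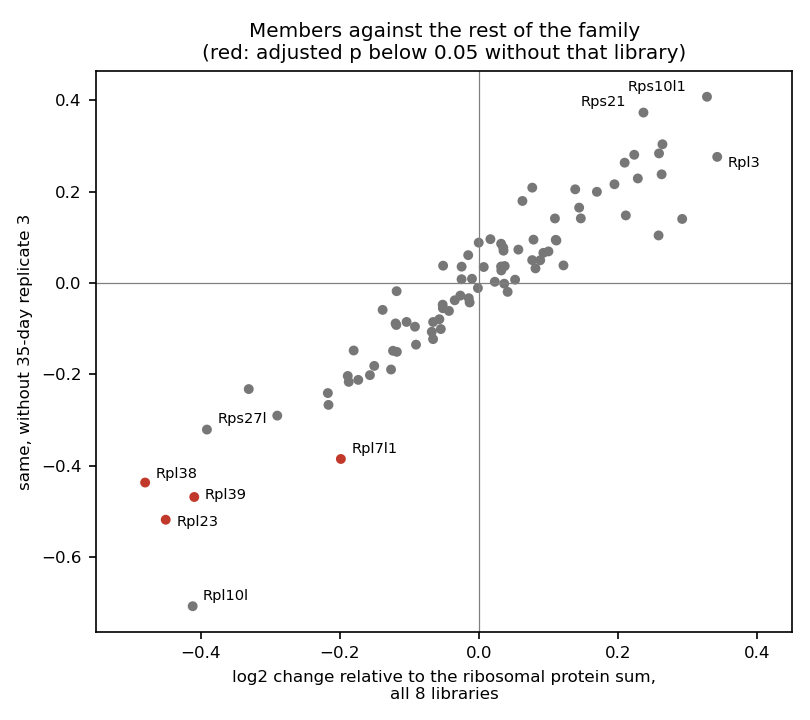
Each point is a member, with its fitted log2 change relative to the ribosomal protein sum over all 8 libraries on the horizontal axis and without 35-day replicate 3 on the vertical axis; the fits share 7 libraries, so their likeness is not a result. The 4 genes in red, Rpl23, Rpl38, Rpl39 and Rpl7l1, lie at -0.39 to -0.52 on the vertical axis.

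Rack1 and Fau encode proteins of the small subunit under names outside the pattern. Rack1, a scaffold protein, had a change of 0.01 over 8 libraries (limma adjusted p = 0.980), and Fau, the fusion gene of Rps30, -0.01 (limma adjusted p = 0.987). Without replicate 3 neither was called, and the changes were 0.15 and 0.22. Like most members, both had their highest value in 35-day replicate 3.

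Of 27 translation factors tested, 2 were higher at 125 days over 8 libraries and none was lower, against 17.7% of all genes called. Eef1a2, the elongation factor form of neurons and muscle, was 0.44 higher on the log2 scale (standard error 0.12, limma adjusted p = 0.0328), with values of 7276, 7703, 8902 and 8558 at 35 days and 12448, 8980, 11033 and 11770 at 125 days and no overlap. Eif4b, a helper of the initiation helicase, was 0.31 higher (standard error 0.09, limma adjusted p = 0.0469), with values of 10471, 10265, 10631 and 10577 at 35 days and 14392, 11512, 13270 and 13096 at 125 days, again without overlap. Leaving out single libraries ended the call of Eef1a2 in 5 of 8 cases (limma adjusted p up to 0.105) and that of Eif4b in 6 of 8 (up to 0.139), and in neither gene for 35-day replicate 3. Without that library, 10 factors were higher and 1 was lower, against 15.9% and 14.8% of all genes. The median change of the group was 0.11 over 8 libraries and 0.14 without replicate 3.

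Of 60 genes of ribosome assembly, 1 was higher over 8 libraries and none was lower, against 8.85% and 8.87% of all genes. It was Rrn3, the factor that brings RNA polymerase I to the ribosomal RNA genes, with values of 2824, 2619, 2957 and 2654 at 35 days and 4208, 3106, 3622 and 3766 at 125 days and a change of 0.40 (standard error 0.10, limma adjusted p = 0.0246). Its call was lost in 6 of 8 cases when 1 library was left out (limma adjusted p up to 0.0783), and held without 35-day replicate 3 or 125-day replicate 2. Without 35-day replicate 3, 3 genes of this group were higher and 3 lower (15.9% and 14.8% of all genes), with medians of -0.02 and 0.01 in the 2 fits.

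Of 24 growth regulators 2 were lower and none was higher over 8 libraries, against 8.87% and 8.85% of all genes, and both were Myc family genes. Without replicate 3, 2 regulators were higher and 1 was lower (15.9% and 14.8% of all genes). Mycl fell by 0.52 on the log2 scale (standard error 0.11, limma adjusted p = 0.00835), with values of 1841, 1811, 1680 and 2106 at 35 days and 1323, 1237, 1160 and 1469 at 125 days, and was called whichever library was left out. Mycn had values of 278, 305, 487 and 406 at 35 days and 176, 268, 175 and 272 at 125 days, and its change of -0.72 passed over 8 libraries (standard error 0.22, limma adjusted p = 0.0493) and missed the threshold in 6 of 8 cases when 1 library was left out, among them without 35-day replicate 3 (limma adjusted p = 0.0562). Of 38 short, abundant transcripts from outside the family 2 were lower over 8 libraries (8.87% of all genes) and none was higher (8.85%): Tmsb4x, which binds free actin, with a change of -0.95 (standard error 0.22, limma adjusted p = 0.0149) and Dynll1, a dynein light chain, with a change of -0.63 (standard error 0.15, limma adjusted p = 0.0183). Without 125-day replicate 4 both calls were lost (limma adjusted p = 0.0527 and 0.0635), and that of Dynll1 also without 125-day replicate 3. Without 35-day replicate 3 there were 6 higher and 4 lower (15.9% and 14.8% of all genes), with a group median of -0.19 over 8 libraries and -0.01 over 7.

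Markers of several cell types changed between the ages in the same fits. All 22 proliferation genes were lower at 125 days in both fits, where 8.87% of all genes were lower over 8 libraries and 14.8% without replicate 3. Their summed level was 16161 to 16978 at 35 days, replicate 3 included, and 4116 to 4346 at 125 days. Without replicate 3, where 20 ribosomal protein genes were higher, 10 of 10 fibroblast markers, 9 of 10 mural, 8 of 10 blood, 7 of 10 endothelial and 8 of 12 pituicyte markers were lower. A single mural and a single pituicyte marker were higher. In the same fit 4 of 10 markers of microglia and macrophages were lower and 1 was higher, 3 of 9 anterior lobe markers were lower, and 2 of 7 intermediate lobe markers and 2 of 3 neurosecretory markers were higher. Over 8 libraries the lower calls were 9 fibroblast, 8 mural, 8 blood, 7 endothelial and 3 pituicyte markers. The part of cell division or of any other change in cell makeup in the ribosomal protein values was not tested.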

How the data were processed

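RNA-seq was done on 8 neurohypophysis libraries, 4 from rats of 35 days and 4 of 125 days. The authors deposited 1 table of depth-normalized counts, a signal in which reads per gene are divided by a size factor. Per the submitters' processing notes, Trimmomatic 0.39, HISAT2 2.2.1, SAMtools 1.13, featureCounts of Subread 2.0.1 and DESeq2 1.34.0 were used, with the build rn7. Not given in the sources used here are the gene annotation, the strand setting and the treatment of multiply mapped reads. The 2 columns of the authors' means were not used.

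Genes that reached 10 in 4 or more of 8 libraries (17919 of 33294) entered limma 3.58.1 (R 4.3.3) on log2(value + 1) with an intensity trend, age as the only term and Benjamini-Hochberg adjustment over all genes. Fold changes are on that scale and understate changes of low genes. Dividing each column by the value of 1 read gave whole reads for 100% of values (tolerance 0.001), 28429133 to 58696254 reads per library. On these, edgeR 4.0.16 called 3170 genes and DESeq2 1.42.0 called 4196, against 3174 with limma. The limma fit was tested on simulated data, and the outcome is not given here. No such test is reported for edgeR, DESeq2, the fit relative to the family or the fits with a library left out. Between libraries of 1 age the counts differed by a chi-square of 14.4 to 249 per gene, so none is a copy of another.

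Other settings were other pseudocounts, filters, scalings and library weights, a replicate block, an anterior lobe covariate (the mean log2 of its markers) and leaving out each library. The settings on 7 libraries were added after seeing the data. Members, lists and tests were chosen with earlier results of these data known. Named were members called in a fit (up to 8 in each direction by adjusted p), the 6 with the highest mean, all paralogs, Rplp0, Rplp1, Rplp2, Rpsa, Rps6 and Rps27a, up to 4 with the largest changes against the members' median, and called genes of 4 other lists (up to 4 each). That rule gave no called member over 8 libraries. Start windows and gene names came from RefSeq (GRCr8). Figures were drawn with matplotlib 3.10.9. Some genes of the lists are counted but not reported here by name.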

Additional observations from a re-analysis of the deposited data

Results flagged for a closer look

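In groups of 4 libraries, 16 of 98 looked at had 1 library far from the others (a gap above Dixon's 95% critical value). In 15 of them the distant library was 35-day replicate 3, above the others: Rpl13a at 43501, Rpl41 at 42678, Rps27l at 1837, Rplp0 at 27810, Rplp2 at 11784, Rps10l1 at 1907, Rps21 at 9334, Rpl8 at 22856, Rps2 at 16363, Rps18 at 15054, Rps18l1 at 1967, Rps14 at 21988, Rpl28 at 15560, Rps28 at 10603 and Rpl13 at 22686. The last was Rpl6 at 125 days, where replicate 2 lay below the others at 12605. Many of the groups looked at belonged to members named after their values without replicate 3 were seen, and the members move together. The rate of about 1 in 20 that chance flags is therefore no measure for the count of 16. Over all 87 members replicate 3 was the distant library at 35 days in 18, and 2 members had a distant library at 125 days. Of all genes tested, 12.3% had a distant library at 35 days and 5.0% at 125 days. The share of all genes in which replicate 3 was that library is not given here, so the 18 members have no like value beside them.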

How the results depend on the processing

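Over 8 libraries no member was called under other pseudocounts, no minimum, a minimum mean of 50, edgeR, TMM scaling (edgeR's factors) or a fit without the intensity trend. Library weights in limma, which lower the weight of scattered libraries, gave 31 higher and 3 lower members and a median change of 0.20. The anterior lobe covariate gave 4 higher (Rps2, Rps18l1, Rpl6 and Rps10l1) and a median of 0.24. DESeq2 gave 2 lower and scaling to total reads 1 lower. The cause of these differences was not tested.

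Leaving out 1 library at a time, 0 to 20 members were higher, 0 to 2 lower (2 without 35-day replicate 4, Rpl23 and Rpl39), and the median ran from -0.14 to 0.20; the upper ends came without 35-day replicate 3. With that library left out, a second library left out gave 15 to 37 higher, the anterior lobe covariate 13 higher, and all of these settings 0 to 5 lower and a median of 0.084 to 0.31. In the fit relative to the family 0 to 4 members were called with 1 library left out and 1 to 6 with a second. No share of all genes called is given here where a library other than 35-day replicate 3 was left out.

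Called translation factors (2) numbered 1 with no minimum or no trend, 14 with library weights, 6 with DESeq2, 0 with the replicate block and 0 to 11 with 1 library left out. Called assembly genes (1) numbered 4 with total-read scaling, 2 with TMM or edgeR, 7 with library weights, 3 with DESeq2 and 0 to 6 with 1 library left out. Called growth regulators (2) numbered 1 with no minimum, a minimum mean of 50, TMM, the block or the anterior lobe covariate, 5 with library weights and 1 to 3 with 1 library left out. Called short transcripts (2) numbered 11 with library weights, 5 with DESeq2, 0 with the anterior lobe covariate and 0 to 10 with 1 library left out. Of all genes, 44.0% were called with library weights, 23.4% with DESeq2, 17.7% with edgeR and 15.0% with the anterior lobe covariate. Without 35-day replicate 3 the share was 30.7%, and for the other settings of this paragraph it is not given here.

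Equal replicate numbers did not pair the samples (correlations of their deviations 0.044, 0.167, -0.00019 and -0.116). The replicate block gave 0 members higher and 0 lower and 2718 calls over all genes, against 3174.

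Small changes that were not called over 8 libraries turned sign. Library weights gave 0.13 in Rps6, 0.20 in Rpl41, 0.12 in Rpsa, 0.34 in Rpl22l1, 0.029 in Rpl39l, 0.032 in Rplp0, 0.26 in Rplp1, 0.25 in Fau and 0.24 in Rpl13. The anterior lobe covariate gave 0.14 in Rps6, 0.31 in Rpl41, 0.17 in Rpsa, 0.39 in Rpl22l1, 0.025 in Rpl39l, 0.18 in Rplp0, 0.27 in Rplp1, 0.30 in Fau and 0.41 in Rpl13. Total-read scaling gave -0.033 in Rpl4, -0.052 in Rplp2, -0.057 in Rack1, -0.0065 in Rps28, -0.034 in Rps9l1 and -0.034 in Rpl36. edgeR gave -0.080 in Rplp2, -0.017 in Rack1, -0.054 in Rps14, -0.059 in Rps28, -0.036 in Rps9l1 and -0.037 in Rpl36, and DESeq2 -0.0012 in Rpl4, -0.082 in Rplp2, -0.019 in Rack1, -0.056 in Rps14, -0.061 in Rps28, -0.038 in Rps9l1 and -0.039 in Rpl36. With 1 library left out the ranges were Rps6 -0.23 to 0.13, Rpl4 -0.083 to 0.19, Rpl41 -0.26 to 0.17, Rpsa -0.18 to 0.10, Rpl22l1 -0.14 to 0.28, Rplp0 -0.16 to 0.054, Rplp1 -0.17 to 0.20, Rplp2 -0.11 to 0.29, Rps27a -0.089 to 0.33, Rack1 -0.072 to 0.15, Fau -0.13 to 0.22, Rps14 -0.040 to 0.40, Rps28 -0.086 to 0.37, Rps9l1 -0.077 to 0.26, Rpl13 -0.12 to 0.23 and Rpl36 -0.081 to 0.27. At this number of libraries the median half-width of a member's interval was 0.44.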
